A study of Mus musculus with 2 samples.

Results

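The genes described here are 31 genes of glycolysis, lactate export and the pentose phosphate pathway, chosen by name for the step they serve, out of 23444 gene symbols in the deposited tables. All 31 were found, and all 31 had at least 1 FPKM in a library (fragments per kilobase of transcript scaled to library depth, a level that can be compared between genes). The study compared macrophages grown in culture from the bone marrow of FVB mice, an inbred strain. There were 2 libraries: one from wild type mice, labelled WT and RON proficient, and one from mice labelled RON TK-/- and RON deficient, which lack the tyrosine kinase of RON, the receptor encoded by Mst1r. For both, 72 hours of recombinant interleukin-4 (10 ng/mL) is stated, a treatment that drives alternative (M2) activation, and both cultures grew in a high glucose medium that held serum, pyruvate and glutamine. The sources used here do not give the age, sex or number of mice behind a library. With 1 library per group no test was possible, no p-value is given, and every comparison is between 2 libraries rather than between genotypes. Values are given by label, so that under the WT label means in the library labelled WT.

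Glycolysis splits glucose into pyruvate in the cytosol. Carriers bring glucose in, hexokinases trap it as a sugar phosphate, phosphofructokinase commits it to breakdown, and lactate dehydrogenase with the monocarboxylate carriers disposes of the pyruvate as lactate. The pentose phosphate pathway branches off after hexokinase: its oxidative arm makes NADPH, and its non-oxidative arm interconverts sugar phosphates and supplies ribose for nucleotides. Macrophages under inflammatory stimulation are known for high glucose uptake and lactate output, and the alternatively activated state is known for heavier use of mitochondrial oxidation.

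The library labelled WT went against the interleukin-4 label that both libraries carry, while the library labelled RON TK-/- showed the response genes of that treatment, and this stands beside every result below. The interleukin-4 response genes Arg1, Retnla, Chil3 and Mrc1 summed to 72.2 FPKM under the WT label and 14326 under the RON TK-/- label, and all 4 were higher in the latter. The inflammatory genes Nos2, Il1b, Tnf and Il6 summed to 3796 FPKM under the WT label and 5.27 in the other, and all 4 were lower in the latter. The part of this difference in the values of the metabolic genes was not tested, and activation state, genotype and library cannot be told apart. All 10 macrophage markers looked up were detected, with sums of 5542 and 6430 FPKM. The libraries held about 59800000 (WT label) and 67100000 (RON TK-/- label) reads, as the ratio of coverage to FPKM gives them. The glycolytic and pentose phosphate genes held between 331 estimated reads (Slc2a3) and 148681 (Pkm) in the former, so counting error was small: the 95% interval of a log2 ratio had a median half-width of 0.034, and the widest was 0.23 for Slc2a3. These intervals cover counting error only and say nothing of differences between animals or cultures.

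The front end of glycolysis and the rest of the pathway differed between the libraries in different ways. Glucose carriers and hexokinases were higher under the WT label for 6 of 6 genes, while the enzymes from aldolase to lactate dehydrogenase were higher under the RON TK-/- label for 10 of 10 genes. Of all 11288 detected genes 23.6% had the higher level under the WT label and 8629 had it under the RON TK-/- label, and 7 of the 10 genes lay below the median ratio of all detected genes. In such bulk RNA, fewer cells that express a gene and less RNA per cell cannot be told apart. At 3 of 7 steps served by more than 1 listed gene, the most abundant isoenzyme was a different gene in each library. The ratio of a gene is given as the log2 of a quotient, FPKM + 1 under the RON TK-/- label over FPKM + 1 under the WT label, a scale that understates differences of low genes. Its median was 0.23 over the 31 genes and 0.57 over 11288 detected genes (the all-gene median). That second value matters for every direction: a gene with a ratio between 0 and 0.57 was higher under the RON TK-/- label as deposited and lower relative to the typical gene.

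On that scale 3 of 31 genes (9.68%) were at least 2-fold higher under the RON TK-/- label, namely Pfkfb4, Rpia and Ldhb, against 25.6% of all detected genes. At least 2-fold lower were 2 of 31 (6.45%), Slc2a6 and Hk2, against 8.71% of all detected genes. Relative to the all-gene median the split turned over, with 2 genes (6.45%) at least 2-fold higher, Pfkfb4 and Rpia, against 8.38%, and 8 genes (25.8%) at least 2-fold lower, against 14.4%. The 8 genes were Slc2a1, Slc2a6, Hk1, Hk2, Hk3, Pfkp, Pfkfb3 and Slc16a1. Of the 8, 7 act upstream of aldolase and 1 carries lactate. Rescaling the libraries themselves to a median ratio of 0 named the same 10 genes, against 8.42% of detected genes higher and 13.9% lower. At 1.5-fold 8 of 31 genes were higher and 6 lower as deposited, against 48.9% and 12.5%, and at 4-fold Pfkfb4 was higher and Slc2a6 lower, against 3.71% and 4.1%.

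**Figure D1:**
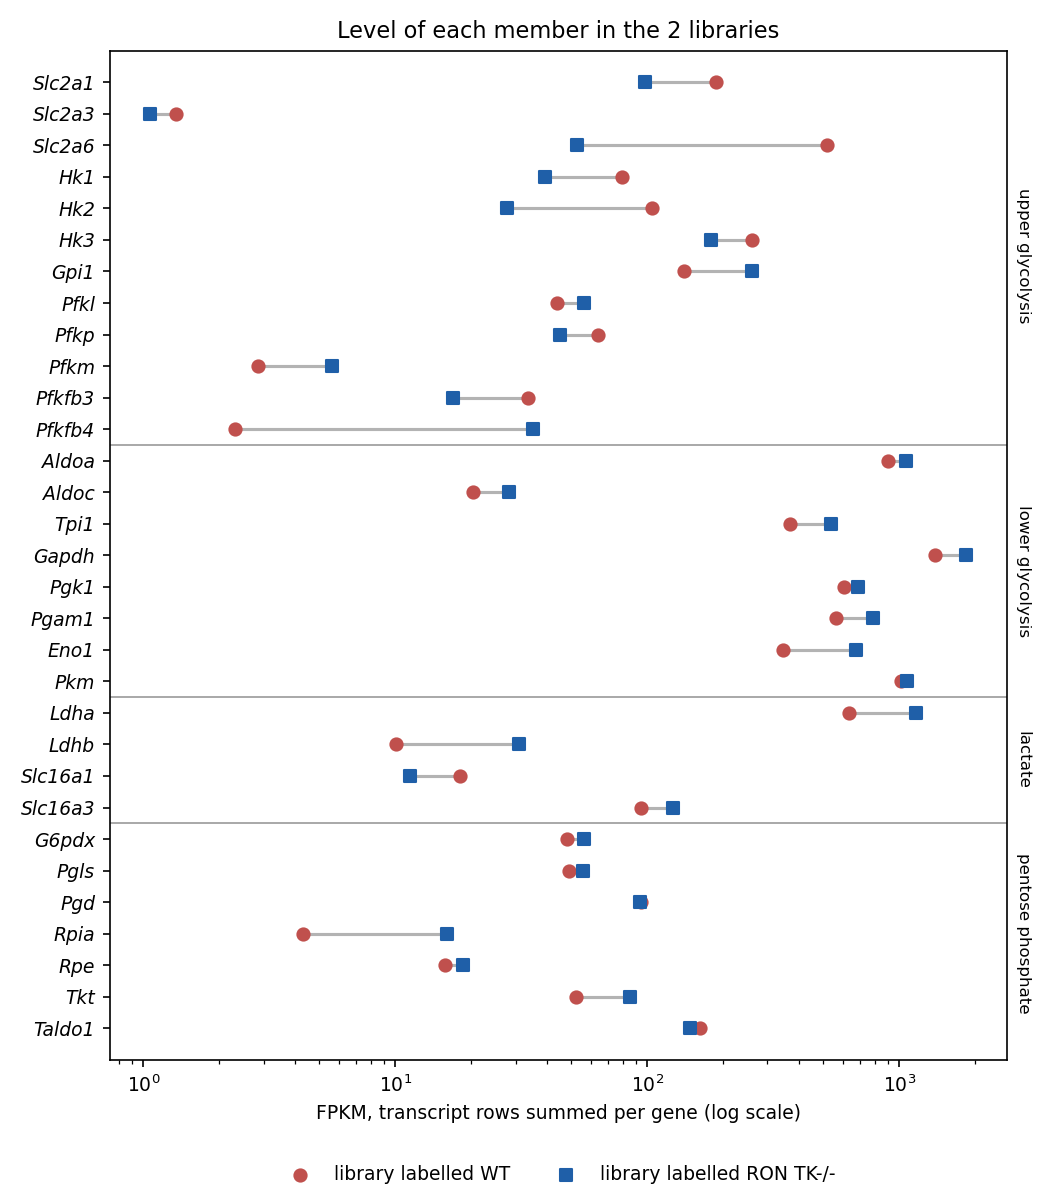
FPKM of each of the 31 genes (log axis) under the WT label (red circles) and the RON TK-/- label (blue squares), 1 library per group, in pathway order. The circles lie to the right for all 6 carriers and hexokinases, and the squares lie to the right for all 8 genes from Aldoa to Pkm.

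**Figure D2:**
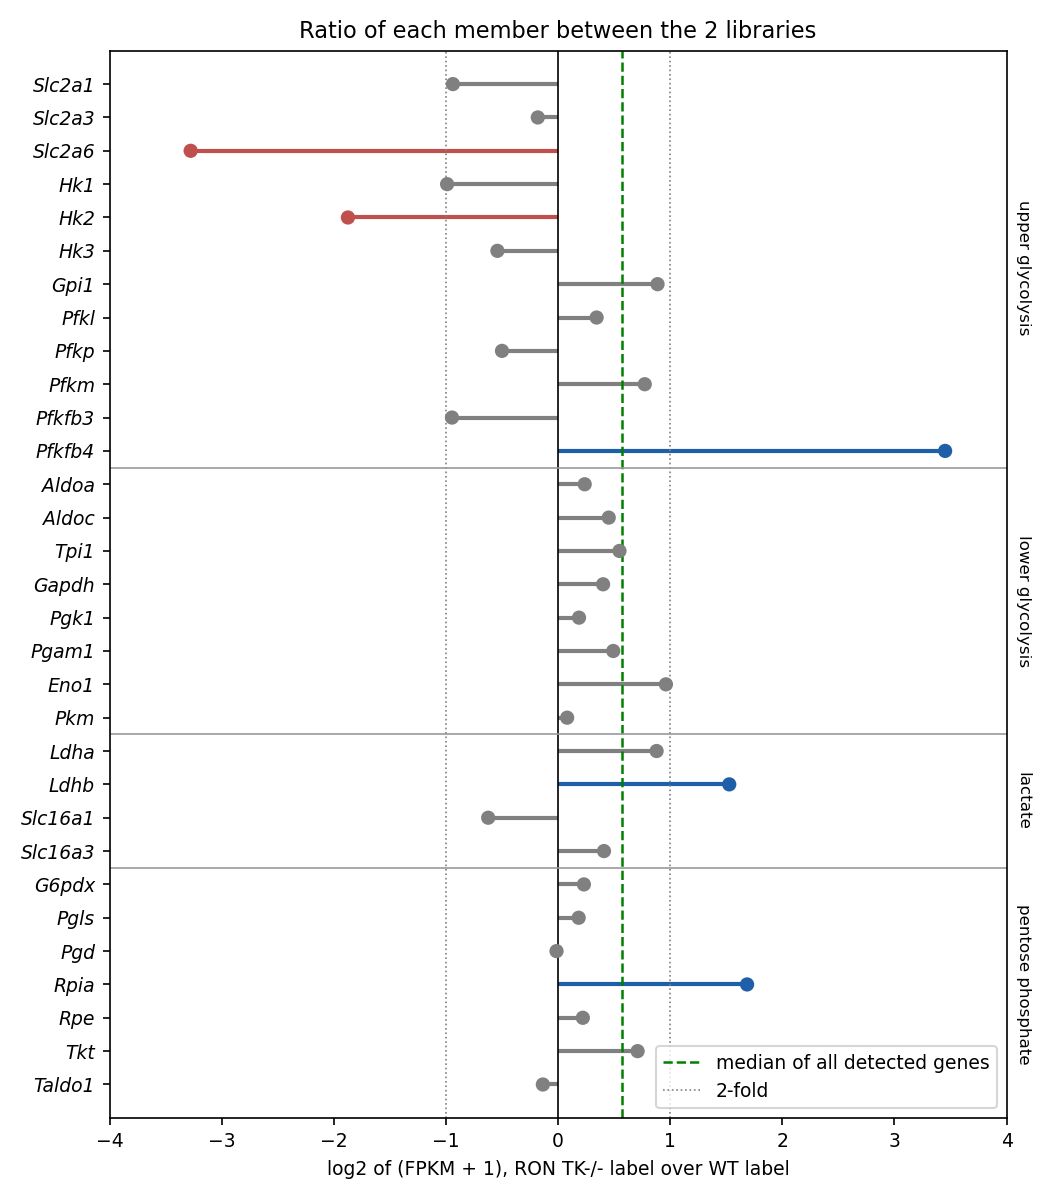
Log2 ratio of (FPKM + 1) of each gene, RON TK-/- label over WT label, with the median of all detected genes (0.57, dashed green) and 2-fold (dotted). Coloured points are past 2-fold, and only Slc2a6, Hk2, Pfkfb4, Ldhb and Rpia are.

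Glucose carriers showed the largest summed difference of any step. Together Slc2a1, Slc2a3 and Slc2a6 had 708 FPKM under the WT label and 151 under the RON TK-/- label, 4.68-fold less. Most of this was Slc2a6, which encodes GLUT6, a carrier found mainly on internal membranes. Slc2a6 had 519 FPKM under the WT label and 52.6 under the RON TK-/- label, a 9.86-fold difference and a log2 ratio of -3.28. It ranked 121st by level among detected genes in the former and 1354th in the latter. Slc2a1, which encodes GLUT1, the main glucose carrier of the macrophage surface, had 188 FPKM under the WT label and 97.5 in the other, a log2 ratio of -0.94. Slc2a3, which encodes the high-affinity carrier GLUT3, was close to the detection minimum in both libraries, at 1.34 and 1.07 FPKM. Slc2a6 thus made up 73.3% of the summed carrier FPKM under the WT label and 34.8% under the RON TK-/- label, while Slc2a1 went from 26.5% to 64.5%. Such shares compare genes within a library and do not change when a library is rescaled.

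Hexokinases were lower under the RON TK-/- label for 3 of 3 genes, by unequal amounts. Hk2, an isoform that can bind mitochondria and is known to be induced when glycolysis is stimulated, had 104 FPKM under the WT label and 27.7 under the RON TK-/- label, 3.76-fold less, with a log2 ratio of -1.87. Only 4.46% of detected genes had a lower ratio. Hk1, the broadly expressed housekeeping isoform, had 79.2 and 39.4 FPKM, and its log2 ratio of -0.99 lay just inside the 2-fold limit. Hk3, the isoform typical of myeloid cells, was the most abundant in both libraries, at 261 FPKM under the WT label and 179 under the RON TK-/- label. Its share of the hexokinase sum was 58.7% in the former and 72.8% in the latter, and the share of Hk2 was 23.4% and 11.2%. Summed over the 3 genes, hexokinase RNA was 444 FPKM under the WT label and 246 in the other.

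Gpi1, whose product converts the trapped sugar phosphate to the fructose form, lay on the other side. It had 140.0 FPKM under the WT label and 259.7 under the RON TK-/- label, a log2 ratio of 0.89, which is 0.32 above the median of all detected genes.

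Phosphofructokinase 1, the committing enzyme, had nearly the same summed level in both libraries, at 111 FPKM under the WT label and 107 under the RON TK-/- label, but in different proportions. Pfkp, the platelet-type subunit, had 63.9 FPKM under the WT label and 44.9 in the other. Pfkl, the liver-type subunit, had 44.0 and 56.0. Pfkp was the most abundant subunit under the WT label, with 57.7% of the sum, and Pfkl under the RON TK-/- label, with 52.6%. The muscle-type Pfkm was low in both, at 2.86 and 5.59 FPKM. Exons of Pfkp overlap those of Pitrm1 on the opposite strand (17.2 and 26.3 FPKM), and exons of Pfkm overlap those of Senp1 (3.11 and 3.06 FPKM). Since the sources used here do not give strand use, reads of these pairs cannot be told apart.

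The widest exchange between isoenzymes was at phosphofructokinase 2. Pfkfb3 and Pfkfb4 encode bifunctional enzymes that make and remove the fructose bisphosphate signal that activates phosphofructokinase 1; PFKFB3 is known for strong kinase activity, which favours glycolysis. Pfkfb4 had 2.32 FPKM under the WT label and 35.3 under the RON TK-/- label, 15.2-fold more, with a log2 ratio of 3.45. Of all detected genes 99.5% had a lower ratio. Pfkfb3 had 33.7 FPKM under the WT label and 16.99 in the other, a log2 ratio of -0.95. Pfkfb3 made up 93.6% of the pair under the WT label and 32.5% under the RON TK-/- label. The summed level of the pair was 35.99 and 52.3 FPKM, so the step as a whole differed by 1.45-fold while its composition turned over.

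**Figure D3:**
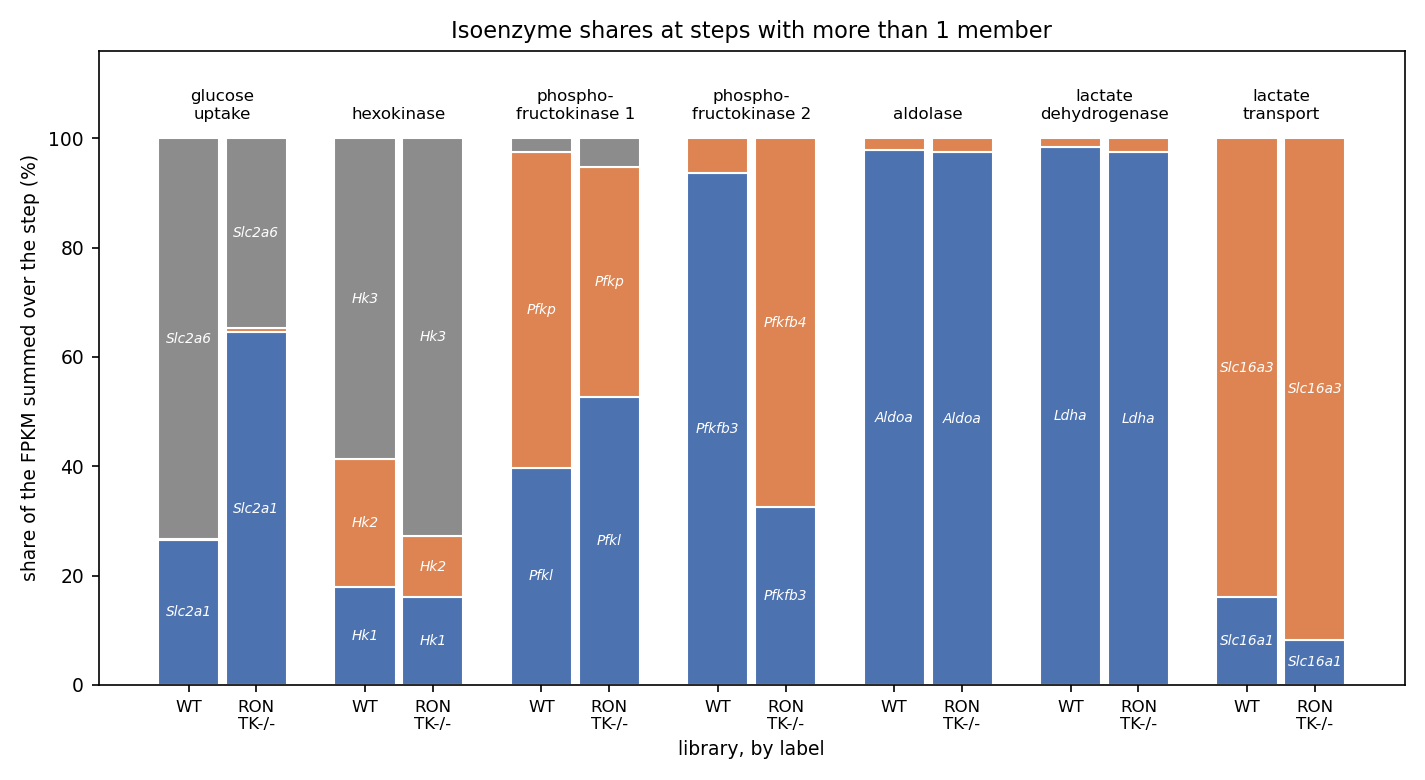
Share of each gene (%) in the FPKM summed over its step, for the 7 steps with more than 1 listed gene, under the WT label and the library labelled RON TK-/-. The largest segment is a different gene in each library for glucose uptake, phosphofructokinase 1 and phosphofructokinase 2; the thin segments without a name are Slc2a3, Pfkm, Pfkfb4 (under the WT label), Aldoc and Ldhb.

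Within Pfkfb3 the transcripts of its annotated starts also went in opposite directions. The gene lies on the minus strand of chromosome 2 between 11471431 and 11553929 (mm10), and its 8 transcript rows begin at an upstream start, used by 1 row, or at a downstream start 51839 bases further on, used by 7 rows. The 7 rows of the downstream start summed to 32.8 FPKM under the WT label and 12.1 under the RON TK-/- label, 2.71-fold less. The row of the upstream start had 0.84 and 4.89 FPKM, 5.82-fold more under the RON TK-/- label. Its share of the gene was 2.50% under the WT label and 28.8% under the RON TK-/- label. Single reads of 50 bases were split between overlapping transcripts by the authors' program, so values per start are less certain than values per gene.

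The sequence before each Pfkfb3 start is shown because the 2 starts differed in opposite directions, and those of Pfkfb4, Slc2a6 and Hk2 because these genes stood furthest apart among the 24 genes of glycolysis and lactate export. Each is 250 bases, 5′ to 3′ on the strand of the gene, ending at the base before the annotated start, from RefSeq on GRCm38.p6 (the assembly that mm10 names). Capitals mark ACGTG on either strand (CACGT when read on the gene's strand). It is a form of the core of the hypoxia response element, to which HIF1A binds. It is also the core of the E box CACGTG, to which MYC and related factors bind. The other form of the hypoxia core, GCGTG, was neither marked nor counted.
Pfkfb3, upstream start, chr2:11553930-11554179, minus strand: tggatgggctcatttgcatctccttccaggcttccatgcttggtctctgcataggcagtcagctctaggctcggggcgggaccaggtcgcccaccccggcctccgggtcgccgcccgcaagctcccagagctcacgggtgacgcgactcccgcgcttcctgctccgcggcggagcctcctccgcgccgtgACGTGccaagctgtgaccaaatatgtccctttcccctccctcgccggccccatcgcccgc
Pfkfb3, downstream start, chr2:11502091-11502340, minus strand: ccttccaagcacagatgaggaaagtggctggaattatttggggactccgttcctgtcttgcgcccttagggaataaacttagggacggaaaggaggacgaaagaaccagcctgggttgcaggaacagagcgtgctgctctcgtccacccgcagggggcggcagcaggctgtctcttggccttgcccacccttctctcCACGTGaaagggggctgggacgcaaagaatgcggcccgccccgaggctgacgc
Pfkfb4, chr9:108991652-108991901, plus strand: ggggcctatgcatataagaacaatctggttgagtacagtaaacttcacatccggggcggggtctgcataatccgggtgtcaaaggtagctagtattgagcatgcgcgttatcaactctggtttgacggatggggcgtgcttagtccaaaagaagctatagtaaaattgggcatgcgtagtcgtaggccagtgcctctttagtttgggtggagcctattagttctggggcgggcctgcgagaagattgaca
Slc2a6, chr2:27027999-27028248, minus strand: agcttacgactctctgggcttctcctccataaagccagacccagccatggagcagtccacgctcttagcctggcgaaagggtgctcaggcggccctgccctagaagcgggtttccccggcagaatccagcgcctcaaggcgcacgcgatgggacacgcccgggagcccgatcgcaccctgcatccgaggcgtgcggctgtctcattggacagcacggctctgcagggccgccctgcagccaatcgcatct
Hk2, chr6:82774455-82774704, minus strand: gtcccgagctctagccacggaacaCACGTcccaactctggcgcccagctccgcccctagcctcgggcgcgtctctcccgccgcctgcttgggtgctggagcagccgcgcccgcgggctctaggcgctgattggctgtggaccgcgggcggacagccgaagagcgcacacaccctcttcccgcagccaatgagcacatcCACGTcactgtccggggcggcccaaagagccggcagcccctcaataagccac

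The window before the upstream Pfkfb3 start held 1 match, beginning 60 bases before the start. The window before its downstream start held a full E box, which reads the same on both strands, beginning 53 bases before the start. Hk2 had 2 matches, beginning 226 and 52 bases before the start. The windows of Slc2a6 and Pfkfb4 had no ACGTG on either strand, but both hold GCGTG, which was not counted. Over the 300 base windows of the table, which also take in the first 50 bases of the gene, 19 of 43 windows of the listed genes (44.2%) held ACGTG, against 19.6% of all 32851 windows. By gene this was 16 of 30 matched (53.3%), against 21.8% of 27025 genes. CACGTG was in 4 of 43 windows (9.30%), against 7.15%. The RefSeq table matched 30 of the 31 genes. A match is a stretch of letters and does not show binding.

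From aldolase to pyruvate kinase the library labelled RON TK-/- had the higher level of 8 of 8 genes, with log2 ratios from 0.08 to 0.96. Of these 8, 7 lay below the median of all detected genes, so relative to the typical gene they were lower, and 0 of 8 were past 2-fold on either scale. All of them but Aldoc ranked among the 221 most abundant RNAs of both libraries. Gapdh, which oxidises the triose phosphate and is widely used as a reference gene, had 1392 FPKM under the WT label and 1838 under the RON TK-/- label, and ranked 26th and 16th of all detected genes by level. Aldoa, the main aldolase outside liver and brain, had 903 and 1065 FPKM. The brain-type Aldoc had 20.4 and 28.3 FPKM, and Aldoa made up 97.8% and 97.4% of the pair.

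The triose and glycerate steps kept close to the rest. Tpi1, which interconverts the triose phosphates, had 367 FPKM under the WT label and 537 under the RON TK-/- label, a log2 ratio of 0.55, or -0.02 relative to the all-gene median. Pgk1, the first ATP-forming enzyme of the pathway, had 604 and 688 FPKM, and Pgam1, the mutase that follows it, had 559.8 and 788. Exons of Tpi1 and Gapdh overlap opposite-strand genes, Spsb2 (5.09 and 17.97 FPKM) and Iffo1 (1.84 and 5.58), which were low beside them.

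Eno1 was the gene of these 8 with a ratio above the median of all detected genes. This enolase, which forms phosphoenolpyruvate, had 346 FPKM under the WT label and 675 under the RON TK-/- label, 1.95-fold more, with a log2 ratio of 0.96. The mouse genome holds a near-identical copy, Eno1b, listed in the files under the symbol Gm5506, with 86.3 and 173 FPKM. Reads of the 2 copies could have been split between them, and both had the same order of libraries with ratios of 0.96 and 0.99.

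As deposited, pyruvate kinase differed least among these 8 genes, and relative to the all-gene median it was the furthest of the 8, at -0.49. Pkm had 1014 FPKM under the WT label and 1073 under the RON TK-/- label, a log2 ratio of 0.08. Its 2 rows differ by mutually exclusive exons of 167 bases each (GENCODE M21, chromosome 9, GRCm38). The M1 form holds the upstream exon, from 59675029 to 59675195, and the M2 form, the form of proliferating and many immune cells, holds the downstream exon, from 59675568 to 59675734. The row of the M2 form had 882 and 935 FPKM and the row of the M1 form 133 and 137. The M2 share was 86.9% under the WT label and 87.2% under the RON TK-/- label, so the split of the 2 forms was nearly equal in libraries of opposite activation profile.

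Other genes with several annotated starts showed smaller exchanges than Pfkfb3. The most upstream start of Aldoa had 8.30 FPKM under the WT label and 29.8 under the RON TK-/- label, while its main start had 864 and 1011. A further Aldoa start went the other way, at 31.1 and 23.3 FPKM. The share of the most upstream start in the gene stayed small, at 0.92% and 2.80%. Hk3 had 158.6 and 120.3 FPKM from its upstream start and 102.5 and 58.8 from its downstream start, so both were lower under the RON TK-/- label. The upstream start of Slc16a3 had 3.17 and 6.10 FPKM and the downstream start 91.6 and 120.0, both higher under that label.

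**Figure D4:**
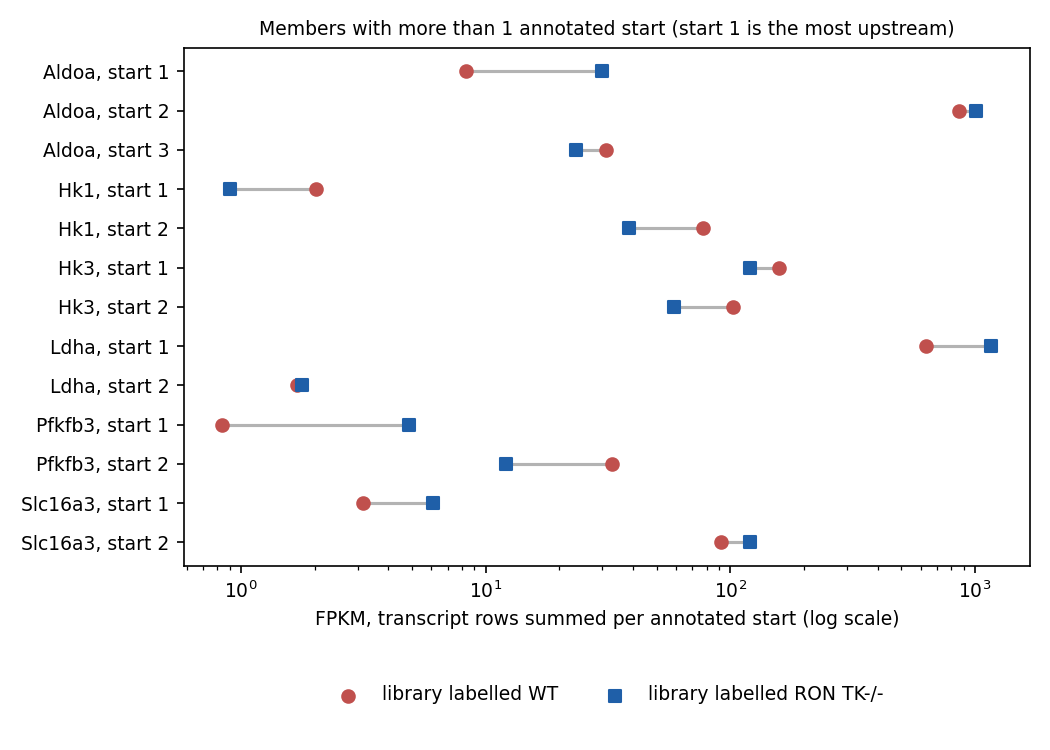
FPKM summed per annotated start (log axis) for the genes with more than 1 start above 0.1 FPKM under the WT label, with start 1 the most upstream; circles are the library labelled WT and squares the library labelled RON TK-/-. For Pfkfb3 the square lies to the right at start 1 (0.84 and 4.89 FPKM) and to the left at start 2 (32.8 and 12.1 FPKM).

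Lactate dehydrogenase and the lactate carriers were not higher under the WT label as a group. Ldha, whose subunit favours lactate formation, had 634 FPKM under the WT label and 1167 under the RON TK-/- label, a log2 ratio of 0.88. Ldhb, whose subunit favours the return of lactate to pyruvate, had 10.1 and 31.0 FPKM, 3.07-fold more under the RON TK-/- label, with a log2 ratio of 1.53. Its share of the dehydrogenase sum was 1.57% and 2.58%, so Ldha made up nearly all of it in both libraries. Relative to the all-gene median Ldhb was at 0.96, just inside 2-fold.

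The 2 lactate carriers lay on opposite sides. Slc16a3, which encodes MCT4, the carrier of cells that export much lactate, had 94.7 FPKM under the WT label and 126 under the RON TK-/- label, a log2 ratio of 0.41. Slc16a1, which encodes MCT1, a carrier with higher affinity that serves both import and export, had 18.1 and 11.4 FPKM, a log2 ratio of -0.62. Slc16a3 was the main carrier in both, with 83.9% and 91.7% of the sum.

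The oxidative arm of the pentose phosphate pathway was nearly level between the libraries. G6pdx, whose product opens the branch and makes its first NADPH, had 47.9 FPKM under the WT label and 56.3 under the RON TK-/- label. Pgls, which opens the lactone ring, had 48.8 and 55.5, and Pgd, which makes the second NADPH, had 94.8 and 93.8. The log2 ratios of the 3 genes lay between -0.01 and 0.23, and all 3 were below the median of all detected genes. Exons of G6pdx overlap those of Ikbkg on the opposite strand (5.08 and 7.92 FPKM).

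The non-oxidative arm was uneven. Rpia, the isomerase that forms ribose phosphate, had 4.30 FPKM under the WT label and 16.04 under the RON TK-/- label, 3.73-fold more, with a log2 ratio of 1.69. It was the second highest ratio among the 31 genes. Tkt, the transketolase, had 52.1 and 85.7 FPKM and a log2 ratio of 0.71. Rpe, the epimerase that competes with Rpia for the same substrate, had 15.8 and 18.6 FPKM, and Taldo1, the transaldolase, had 162 and 147. Rpia was therefore the least abundant enzyme RNA of the branch in both libraries, and its distance to Rpe was small under the RON TK-/- label. The median log2 ratio of the 7 pentose phosphate genes was 0.22, against 0.29 for the 24 genes of glycolysis and lactate export.

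Other genes of these pathways were looked up in 6 further lists. Among enzymes that feed on or salvage pentose phosphates, 5 of 7 detected genes were 2-fold higher or more under the RON TK-/- label. The number lower was 0, and the shares of all detected genes were 25.6% and 8.71%. Shpk, among the 5, was detected only under the RON TK-/- label, so these counts are a description. Their median log2 ratio was 1.19. Prps1, which makes the activated ribose for nucleotide synthesis, had 4.87 FPKM under the WT label and 33.2 under the RON TK-/- label. Dera, which breaks down deoxyribose phosphate, had 9.65 and 25.2, and H6pd, the hexose phosphate dehydrogenase of the endoplasmic reticulum, had 7.55 and 18.2. The other two were Shpk, the sedoheptulose kinase, at 0.16 and 1.66 FPKM, and Tigar (listed as 9630033F20Rik), a phosphatase that lowers the fructose bisphosphate signal, at 1.19 and 3.998. Relative to the all-gene median only Prps1 of these 7 was past 2-fold, on the higher side, against 8.38% of all detected genes.

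Genes that carry pyruvate into mitochondrial oxidation or regulate its entry were at least 2-fold higher for 6 of 15 and lower for 0, against 25.6% and 8.71% of all detected genes, with a median of 0.88. Relative to the all-gene median only Pdp1 and Pdp2 of the 15 were past 2-fold, both higher, against 8.38% of all detected genes. Pdp2 (0.52 and 3.58 FPKM), among the 6, was detected only under the RON TK-/- label, so these counts are a description. Pdp1, the phosphatase that switches pyruvate dehydrogenase on, had 1.52 FPKM under the WT label and 18.7 under the RON TK-/- label, 12.3-fold more. Pdha1, the catalytic subunit of pyruvate dehydrogenase, had 23.8 and 65.3, and the carboxylase Pcx had 1.66 and 6.58. Pdk2, a kinase that switches the same enzyme off, was also among the 6, at 1.004 and 3.72 FPKM. The mitochondrial pyruvate carrier genes Mpc1 (53.5 and 50.5 FPKM) and Mpc2 (23.4 and 31.8) were within 2-fold.

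In the list of gluconeogenesis, glycogen and glycerol phosphate 8 of 15 detected genes were past 2-fold on the higher side and 2 on the lower, against 25.6% and 8.71% of all detected genes, and the median log2 ratio was 1.02. Relative to the all-gene median 2 were higher and 2 lower, against 8.38% and 14.4% of all detected genes. Pck2, the mitochondrial carboxykinase, had 2.18 FPKM under the WT label and 19.02 under the RON TK-/- label, and the glucose phosphate carrier Slc37a4 had 2.65 and 10.1. Gys1, the glycogen synthase of most tissues outside the liver, was on the same side, at 10.0 and 25.3 FPKM. The 2 lower genes were Gpd2, the mitochondrial glycerol phosphate dehydrogenase (22.9 and 6.75 FPKM), and Pgm2l1 (14.7 and 4.36). Of the 16 detected other isoenzymes and carriers 2 were at least 2-fold higher, below the 25.6% of all detected genes, and 0 lower. Relative to the all-gene median 1 of the 16 was higher and 1 lower, against the same 8.38% and 14.4%. The lower gene was the carrier gene Slc16a6, at -1.30. The 2 higher genes as deposited were Pfkfb2, at 1.011 and 5.45 FPKM, and Pgam5, a mitochondrial phosphatase despite its name, at 8.25 and 17.99. Bsg, the chaperone of the lactate carriers, was level at 391 and 372.

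Among users and suppliers of NADPH 4 of 15 genes were at least 2-fold lower under the RON TK-/- label, against 8.71% of all detected genes. On the higher side was 1 gene, against 25.6%. Relative to the all-gene median the counts were again 4 lower and 1 higher, against 14.4% and 8.38% of all detected genes. The median log2 ratio of the list was 0.12, and the 4 lower genes are users or enzymes of thiol defence. Cybb, the catalytic subunit of the phagocyte NADPH oxidase, had 313 FPKM under the WT label and 30.8 under the RON TK-/- label, while its partners Cyba, Ncf1 and Ncf4 had log2 ratios from -0.12 to 0.08. Txnrd1 (163 and 40.1 FPKM), Gsr (25.5 and 8.28) and Gclm (31.3 and 11.7), which act in thiol defence, were the other three. The higher gene was Idh1, a cytosolic source of NADPH, at 21.2 and 132 FPKM.

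Known regulators of these pathways were at least 2-fold higher for 3 of 16 detected genes and lower for 2, against 25.6% and 8.71% of all detected genes. Relative to the all-gene median 1 was higher and 4 lower, against 8.38% and 14.4% of all detected genes. The split over all detected genes thus turned over as well. Hif1a, the oxygen-sensitive factor that induces glycolytic genes, had 153 FPKM under the WT label and 42.2 under the RON TK-/- label, and Arrdc4, an arrestin that restrains glucose uptake, had 59.1 and 24.5. Myc, which also acts on glycolytic genes, had 6.55 and 23.2 FPKM, the HIF hydroxylase Egln1 had 16.96 and 36.8, and Prkaa1, a catalytic subunit of the energy sensor AMPK, had 6.27 and 16.4.

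**Figure D5:**
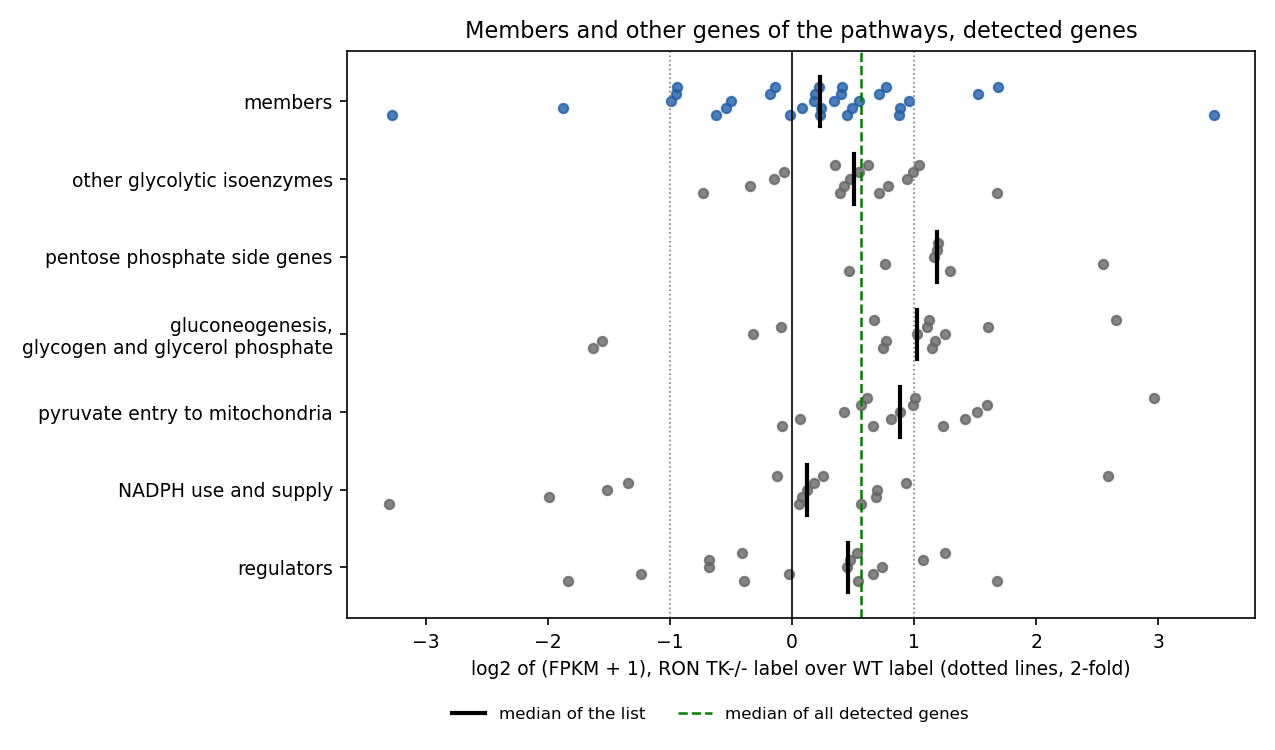
Log2 ratio of (FPKM + 1), RON TK-/- label over WT label, of the 31 genes and of the detected genes of 6 further lists; each point is a gene, the black bar is the median of a list and the dashed green line the median of all detected genes (0.57). The bar of the 31 genes (0.23) lies left of the dashed line, and those of the pentose side genes (1.19) and of gluconeogenesis, glycogen and glycerol phosphate (1.02) lie right of it.

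By level, 14 of the 31 genes reached 100 FPKM under the WT label and 12 under the RON TK-/- label. The summed level of the 31 genes was 7830 FPKM under the WT label (1.84% of the library's total) and 9315 under the RON TK-/- label (2.09%). The 12 genes upstream of aldolase summed to 1439 and 816 FPKM, and the 8 genes from aldolase to pyruvate kinase to 5207 and 6691. The front end was thus lower and the lower part higher under the RON TK-/- label in summed FPKM as deposited. Slc2a6 alone had 519 and 52.6 FPKM, and 4 of the 12 genes upstream of aldolase were higher under the RON TK-/- label. Of the 8 genes from aldolase to pyruvate kinase, 7 lay below the all-gene median. The pentose phosphate genes summed to 426 and 473.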

How the data were processed

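RNA was measured in 2 libraries, 1 per group. Per the labels' protocols, total RNA was extracted with TRIZOL, a TruSeq RNA kit was used, and reads were single and 50 bases long. Per the file headers, which have the column names of Cufflinks output, the authors deposited FPKM for each RefSeq transcript. Beside it stands a deposited coverage value, the mean read depth per base. The submitters' processing notes name mm10 and DESeq, with no role given. For the aligner, annotation release and strand use, nothing is stated in the sources used here.

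Rows of a symbol were summed, a pseudocount of 1 was added, and a gene counted as detected when either library reached 1 FPKM (Python 3.11.15, pandas 2.3.3). Reads were estimated as coverage times length over 50, and no count model was used. Starts in the files count from 0 and are printed counted from 1. Symbols were matched through RefSeq synonyms. The functions recovered planted ratios in simulated data. The genes, lists and tests were chosen with earlier results of these data known. All 31 genes are named; of the 113 genes of the other lists, those past 2-fold with at least 5 FPKM were named, at most 6 per list, and further genes named from these lists were chosen after their values were seen. Alternatives covered the pseudocount, the filter, rescaling, the rows used and the threshold. Some genes of these lists are counted but not reported by name here.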

Additional observations from a re-analysis of the deposited data

How the results depend on the processing

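Rescaling and the threshold moved the counts most. With the median ratio of all detected genes rescaled to 0, the median over the 31 genes turned from 0.23 to -0.42. That of the 7 pentose phosphate genes turned from 0.22 to -0.42. In that setting 8 genes in place of 2 were at least 2-fold lower under the RON TK-/- label. The lower share of all detected genes was 13.9% in place of 8.71%. That rescaling turned the sign of 12 of the 31 ratios, and the other 19 kept their sign in every setting. After rescaling to TPM 5 genes were at least 2-fold lower, against 9.91% of all detected genes, and the medians were 0.17 and 0.16. With a pseudocount of 5 the pentose phosphate median was 0.18. At 1.5-fold 8 genes were higher and 6 lower, against 48.9% and 12.5% of all detected genes, and at 4-fold 1 was higher (Pfkfb4) and 1 lower (Slc2a6), against 3.71% and 4.10%. The number of steps with a different leading isoenzyme was 3 with the most abundant transcript row of each gene and with estimated reads. Slc2a1, Hk1 and Pfkfb3 were the genes added after TPM rescaling; Hk1 also passed 2-fold with a pseudocount of 0.1, and Pfkfb3 with the most abundant row. No paired analysis was possible because each group has 1 library, and for the same reason no library could be left out.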

Other observations

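Markers of other cell types were looked up as well. Fibroblast genes were detected for 4 of 5 markers, with sums of 620.4 FPKM under the WT label and 721 under the RON TK-/- label, led by Col1a2 (407 and 433) and Col1a1 (195 and 250.01). The 5 mast cell and basophil markers were at 0 in both libraries, and the T cell markers Cd3e, Cd3d and Cd3g were too. Of the other T cell markers Lck had 3.96 and 0.34 FPKM and Cd2 was listed at 0 and 1.80. Endothelial genes were detected for 3 of 4 markers, with sums of 11.7 and 43.0 FPKM, from Vwf (4.22 and 38.6), Kdr (6.54 and 1.72) and Pecam1 (0.53 and 2.53), while Cdh5 had 0.47 and 0.18. The fibroblast marker Pdgfra had 8.93 and 24.3. B cell markers summed to 0.23 and 0.049 FPKM. Their part in the metabolic genes' values was not tested.

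Other genes overlap exons of the listed genes in the annotation. Rpe shares exonic sequence with Kansl1l on the opposite strand (2.63 and 1.91 FPKM), and Hk3 with Unc5a (0.16 and 0.035 FPKM). The testis copies Aldoart1, Aldoart2 and Gapdhs were listed at 0 in both libraries.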
